A study of Mus musculus with 3 samples.

Results

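The Hox genes of the mouse were followed in embryoid bodies of a Dido mutant and of wild type. The members are all genes whose name on the array is Hoxa, Hoxb, Hoxc or Hoxd with a paralogue number, leaving out control spots. This gave 39 genes, read by 44 probes on 62 spots, of which 31 genes passed the filter on dim probes, out of 19665 genes in all. The Hoxa cluster on chromosome 6 has 11 members and 9 that passed, the Hoxb cluster on chromosome 11 has 10 and 9, the Hoxc cluster on chromosome 15 has 9 and 6, and the Hoxd cluster on chromosome 2 has 9 and 7. The rule uses gene names and no measured value, though it was set with earlier results of these data known.

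Embryonic stem cells kept in suspension clump into embryoid bodies and differentiate there. Both genotypes were cultured side by side for 10 days in suspension on low attachment plates without LIF, the cytokine that keeps mouse embryonic stem cells from differentiating. The control is labelled wild type, and the mutant is labelled Dido3deltaCT+HADidoNT: its Dido3 protein lacks the normal C-terminal end, and it overexpresses the N-terminal region that the Dido proteins share, which holds the PHD domain, with an HA tag. The labels give 3 biological replicates per genotype and do not say how many cell lines or clones they come from, what drives the added construct, or the sex of the lines. Each of 3 two-colour arrays compared 1 mutant RNA with 1 wild-type RNA, and the mutant carried the dye Cy3 on arrays 1 and 3 but Cy5 on array 2. Array 2 is alone in its dye orientation, so the dye and that pair of cultures cannot be told apart.

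Hox proteins are transcription factors that bind DNA through a homeodomain and give cells their position along the axis from head to tail. Their genes lie in clusters in which low paralogue numbers act early and toward the head, and high numbers act later and toward the tail, the limb ends and the genital tract. Signals such as retinoic acid, and the Cdx factors downstream of Wnt and FGF, open the clusters. Polycomb proteins keep them silent and trithorax-type proteins keep them active. Pbx, Meis and Pknox proteins of the TALE class bind DNA together with Hox proteins. In embryoid bodies the clusters are opened as cells leave the stem cell state and take on mesodermal or neural fates.

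The sequences the arrays used matter here because Hox genes resemble one another inside the homeodomain. The first 30 of 60 bases are shown for the probes of 4 of the members with the smallest p, as the deposited files give them, with coordinates of the mouse build mm9, written 5′ to 3′ in lower case.
Hoxb2, chr11:96215122-96215181, plus strand: tggtaaaactccttccaacgaaatctcagg
Hoxc6, chr15:102842243-102842302, plus strand: cctcctgtataaatccgacctctggatccg
Hoxc8, chr15:102821238-102821297, plus strand: ttttccaaatacaaaggcggcgagtccctg
Hoxd4, chr2:74566866-74566925, plus strand: tcatatggcaggagctactgagaacataaa
The file pairs each of these probes with a transcript accession of its gene. Which exon or untranslated region lies under a probe was not analysed here, and transcripts of neighbouring Hox genes can overlap. No pair of member probes was close in sequence: the most alike, those of Hoxc6 and Hoxd8, shared 29 of 60 bases in a comparison without gaps.

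The data hold for each probe a signal of the mutant and of wild type on every array, in units of the scanner after its own background subtraction and dye normalization. These signals were not scaled between arrays, so mutant and wild type are compared only within an array, and ranges over arrays are given as a description. The ratios below are log2 of mutant over wild type from a separate normalization that adds an offset of 50 units, so that noise in dim spots does not give large ratios. For dim probes the offset also pulls ratios toward 0, so the mean ratio of the scanner software, which adds no offset, is given for each member where it differs by more than 0.5. Values are given as mean ± SD over n = 3 arrays, and tests are limma's against 0, two-sided, with Benjamini-Hochberg adjustment over the 19665 genes at a threshold of 0.05.

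Over the whole array, 66.5% to 74.8% of spots stood well above background for the mutant and 64.8% to 76.0% for wild type, none was saturated, and the number of arrays limits the precision. The 4 probes of Dido1, the altered gene, went in both directions. One read -3.79, -3.58 and -3.45 on arrays 1, 2 and 3 (mean -3.60 ± 0.17), another was at -0.54 ± 0.93, and the others were at 2.35 ± 0.40 and 3.03 ± 0.34. Of all genes, 249 rose and 76 fell in the mutant in limma, and 2 of those that fell, Eif2s3y and Ddx3y, are on chromosome Y (adjusted p = 0.0354 and 0.0356). Eif2s3y read -6.17, -7.07 and -6.46 on arrays 1, 2 and 3, and Ddx3y -3.48, -5.38 and -5.26. This difference was present on every array, so it cannot be told apart from the genotype, and its bearing on the Hox values was not tested. The 325 calls over all genes come from the fit of all 3 arrays together, and the count depended strongly on which arrays were in it. Without replicate 1 or without replicate 3, 0 genes were called in limma, with 1659 and 2370 at an unadjusted p under 0.05, and without replicate 2, which leaves both mutant RNAs in Cy3, 5082 were called.

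Most Hox genes that could be measured read higher in the mutant, and none passed the test. The median log2 ratio of the 31 genes was 0.53, against -0.01 for all genes, and it was 0.93 on array 1, 0.24 on array 2 and 0.22 on array 3. In limma 0 of 31 members were called, where 1.65% of all genes were. An unadjusted p under 0.05 was reached by 10 members that were higher, where 12.1% of all genes were higher at that level, and by 0 that were lower, where 7.78% of all genes were. On all 3 arrays 14 of 31 members were higher, against 22.5% of all genes, and 1 was lower, against 19.1%. The smallest adjusted p of a member was 0.0610, for Hoxb2. The count of 10 was 2 without replicate 1 (5.52% of all genes) and 4 with the background not limited (9.53% of all genes). Without replicate 2 the called members were 8, namely Hoxa11, Hoxa13, Hoxb2, Hoxb3, Hoxb4, Hoxc13, Hoxd4 and Hoxd8, where 25.8% of all genes were called, so their share was that of the background. With the dye as a term they were 2, Hoxb2 and Hoxc8, where 12.9% of all genes were called. Without replicate 3, 24 members were higher on both remaining arrays, against 28.0% of all genes, and without replicate 1 the median was 0.29.

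The filter bears on these counts. Of the 31 members, 22 were well above background in both genotypes on every array, 7 passed through the mutant alone (Hoxa11, Hoxb5, Hoxb6, Hoxb8, Hoxb9, Hoxc8 and Hoxd3) and 2 through wild type alone (Hoxa2 and Hoxb13), and passing through 1 genotype alone favours a higher reading there. Over the 22 alone the median was 0.55, 11 were higher on all arrays, against 21.1% of all genes under that filter, 8 were higher at an unadjusted p under 0.05, against 11.4%, and 0 were called in limma. Bulk RNA does not tell fewer cells that express a gene from less of its RNA per cell, and this holds for every value here.

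**Figure D1:**
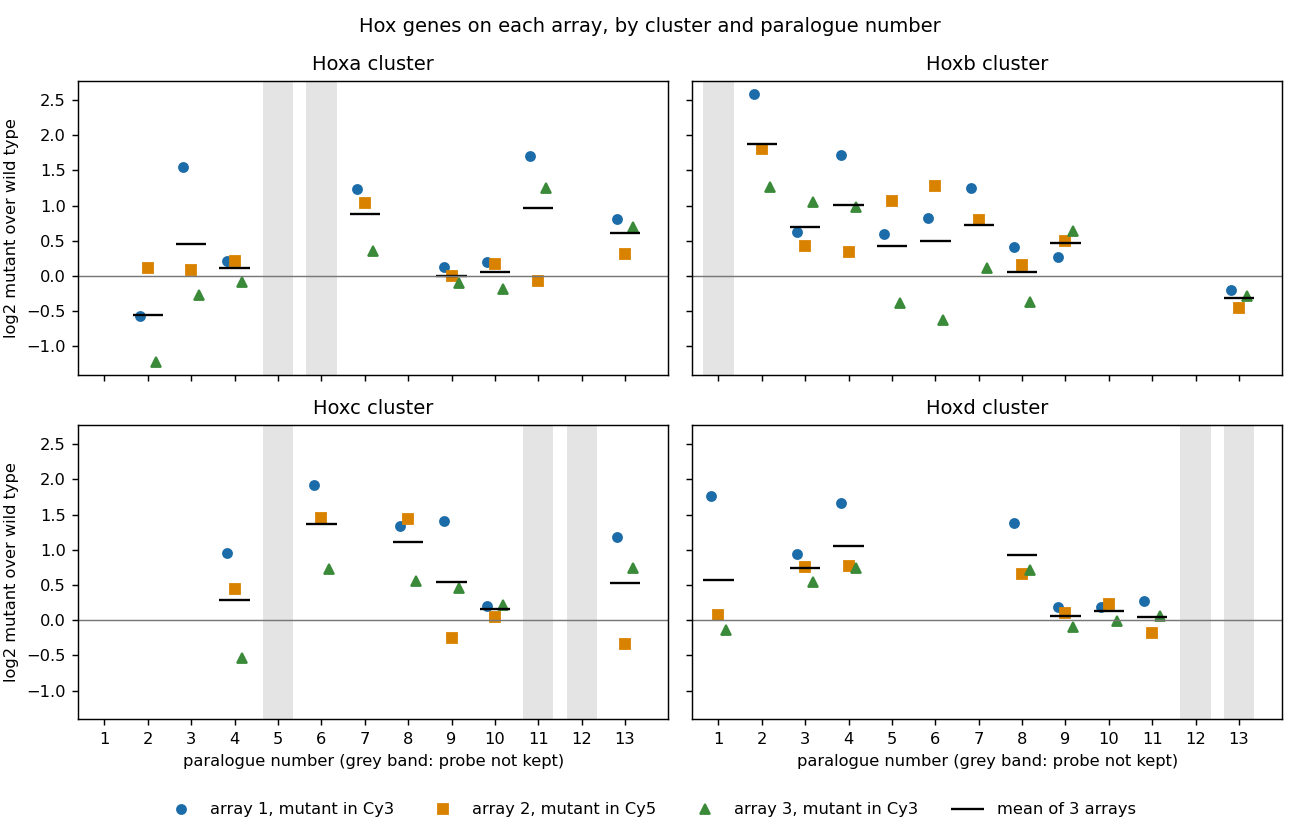
Log2 ratio of mutant over wild type (y axis) of each Hox gene that passed the filter, by paralogue number (x axis) in the 4 clusters; points are the 3 arrays, black lines their mean, grey bands members whose probe was too dim, and 1 of the 31 genes is not drawn. Array 1 lies above 0 for 29 of 31 genes, array 2 for 25 and array 3 for 18.

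The plot of ratios by cluster and paralogue number shows that the arrays differed as much as the genes did. Array 1 gave the largest ratio of the 3 for 23 members and array 3 the smallest for 19. A total of 10 members were higher on arrays 1 and 2 and lower on array 3, and 4 were higher on arrays 1 and 3, where the mutant is in Cy3, and lower on array 2. By position in the cluster, the 11 measured genes of paralogue numbers 1 to 4 had a median of 0.70, the 8 of numbers 5 to 8 a median of 0.80, and the 12 of numbers 9 to 13 a median of 0.15. On array 1 these medians were 1.55, 1.24 and 0.24, on array 2 they were 0.34, 1.05 and 0.02, and on array 3 they were 0.50, 0.24 and 0.14. Over the means, the medians of the clusters were 0.45 for Hoxa, 0.49 for Hoxb, 0.53 for Hoxc and 0.57 for Hoxd. On array 3 they were -0.08, 0.11, 0.51 and 0.05, and without replicate 1 they were 0.065, 0.46, 0.17 and 0.11, so the values of Hoxa, Hoxc and Hoxd were lower without that replicate. These medians are descriptions of few genes, and differences between classes or clusters were not tested. Over the means they kept their sign under every alternative processing that was run.

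In the Hoxb cluster, Hoxb2, which takes part in patterning the hindbrain, had the largest mean ratio of all members. Its signal was 2780.2 in the mutant against 404 in wild type on array 1, 1920.3 against 401 on array 2 and 2418 against 1012 on array 3. The mutant was thus above wild type in each pair. The log2 ratios were 2.58, 1.80 and 1.26, a mean of 1.88 ± 0.66 or 3.69-fold, with an adjusted p of 0.0610 in limma, so Hoxb2 missed the threshold. Because its probe is bright, the ratio of the scanner software was close by, at 2.10 ± 0.78.

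Hoxb4, a factor known for the expansion of blood stem cells, gave signals of 1293 against 349.6 on array 1, 1167 against 942 on array 2 and 1115 against 569 on array 3. The mutant was above wild type in each pair, and the gap was narrow on array 2. Its log2 ratios of 1.72, 0.34 and 0.98 gave a mean of 1.01 ± 0.69 (adjusted p = 0.181). Hoxb3, which acts in the hindbrain and throat region, read 85.9 against 19.2, 180.2 against 112 and 277 against 105, higher in each pair. Its log2 ratios were 0.62, 0.43 and 1.04, a mean of 0.70 ± 0.31 (adjusted p = 0.177), and the scanner mean was 1.42 ± 0.74. The second Hoxb3 probe read 0.38, 0.64 and -0.04, so the probes of this gene disagree in sign on array 3.

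The middle of the Hoxb cluster was higher on arrays 1 and 2 and split on array 3. Hoxb5 read 0.60, 1.07 and -0.38, Hoxb6 0.83, 1.28 and -0.63, and Hoxb8, which is active in myeloid cells, 0.41, 0.15 and -0.38. Hoxb7 stayed above 0 on all arrays, at 1.25, 0.80 and 0.11 (mean 0.72 ± 0.57, adjusted p = 0.256). The scanner means of Hoxb5, Hoxb6 and Hoxb8 were 1.31 ± 2.26, 1.23 ± 2.15 and 0.63 ± 1.15. Wild-type signals of Hoxb5, Hoxb6 and Hoxb8 were well above background on 2 of 3 arrays only. Hoxb9, a thoracic patterning gene measured in wild type on 2 arrays, read 0.27, 0.49 and 0.65 (mean 0.47 ± 0.19, adjusted p = 0.279), and here array 3 was the highest. Its scanner mean was 1.02 ± 0.73.

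At the far end of that cluster Hoxb13, a gene of the tail and prostate, was the one member lower on every array. It read -0.20, -0.46 and -0.28, a mean of -0.31 ± 0.14 (adjusted p = 0.432), and the scanner mean was -1.65 ± 1.68. Its signal was 15.7 against 18.5, 4.91 against 55.7 and 10.1 against 23.3, and no array measured the mutant well above background. The bound computed for the means came out at the measured value itself, 1.24-fold lower, so it sets no limit beyond that value. It was taken from channel intensities after loess and Aquantile scaling, as the higher per array of the probe's own signal and the lowest signal well above background, and is open to dye bias.

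In the Hoxc cluster the members with the largest ratios were Hoxc6 and Hoxc8, which pattern the chest region of the trunk. Hoxc6 gave 1434 against 299.7 on array 1, 1085 against 356 on array 2 and 546 against 310.4 on array 3, with the mutant higher in each pair. Its log2 ratios were 1.92, 1.45 and 0.73, a mean of 1.37 ± 0.60 or 2.58-fold (adjusted p = 0.0914). Hoxc8 gave 207 against 11.5, 162 against 5.07 and 63.8 against 31.8, with wild type well above background on 1 array only. Its log2 ratios were 1.33, 1.44 and 0.56, a mean of 1.11 ± 0.48 (adjusted p = 0.108). The scanner software, which adds no offset, gave Hoxc8 ratios of 4.16, 4.99 and 1.01 (mean 3.39 ± 2.10), so the size of its difference depends on how the dim wild-type signal is treated while its sign does not.

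The other members of this cluster had no common sign over the arrays, apart from Hoxc10. Hoxc4 read 0.95, 0.45 and -0.54. Hoxc9, which helps set the columns of thoracic motor neurons, read 1.41, -0.25 and 0.45, and Hoxc13, a hair and nail gene, 1.18, -0.34 and 0.74. Both were higher where the mutant was in Cy3 and lower where it was in Cy5. Hoxc10, a lumbar gene, was close to 0 on each array, at 0.21, 0.05 and 0.22.

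Neighbours on chromosome 2, Hoxd3, Hoxd4 and Hoxd8, were higher on all arrays. Hoxd4, which patterns the neck vertebrae, gave 414 against 104 on array 1, 273 against 127 on array 2 and 398 against 230.03 on array 3. The mutant was higher in each pair, and the log2 ratios were 1.66, 0.76 and 0.74, a mean of 1.05 ± 0.53 or 2.08-fold (adjusted p = 0.128). Hoxd8, a trunk gene, gave 199 against 33.1, 337 against 198 and 428 against 244. Here too the mutant was higher in each pair, and the ratios were 1.38, 0.66 and 0.72, a mean of 0.92 ± 0.40 (adjusted p = 0.130).

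Hoxd3, which with its paralogues shapes the first neck vertebrae, had the tightest ratios of the members with an unadjusted p under 0.05. They were 0.93, 0.76 and 0.55, a mean of 0.75 ± 0.19 (adjusted p = 0.133), from signals of 125 against 33.6, 67.4 against 6.64 and 81.9 against 36.4. The wild-type signal was well above background on 2 arrays, and the scanner software gave a mean of 2.14 ± 1.11. Hoxd1, the most anterior member of that cluster, read 1.77 on array 1 but 0.08 and -0.14 on the others, with a scanner mean of 1.38 ± 2.26. From Hoxd9 to Hoxd11 the ratios of the probes used were small and of mixed sign. Hoxd9 read 0.18, 0.11 and -0.10, Hoxd10 0.19, 0.24 and -0.02, and Hoxd11 0.27, -0.19 and 0.05.

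The Hoxa cluster was the most mixed. Hoxa7, a trunk gene, gave 776 against 260.1 on array 1, 322 against 92.9 on array 2 and 477 against 324 on array 3, higher in each pair. Its log2 ratios were 1.23, 1.03 and 0.36, a mean of 0.88 ± 0.46 (adjusted p = 0.155). Hoxa13, a gene of the limb ends, the genital tubercle and the hindgut, gave 96.2 against 20.7, 39.5 against 21.8 and 79.8 against 26.6, higher in each pair. Its log2 ratios were 0.81, 0.32 and 0.69, a mean of 0.61 ± 0.26 (adjusted p = 0.204), and the scanner mean was 1.55 ± 0.68. A second Hoxa13 probe read 0.88, 0.30 and 0.73, so 2 probes gave nearly the same values on each array.

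**Figure D2:**
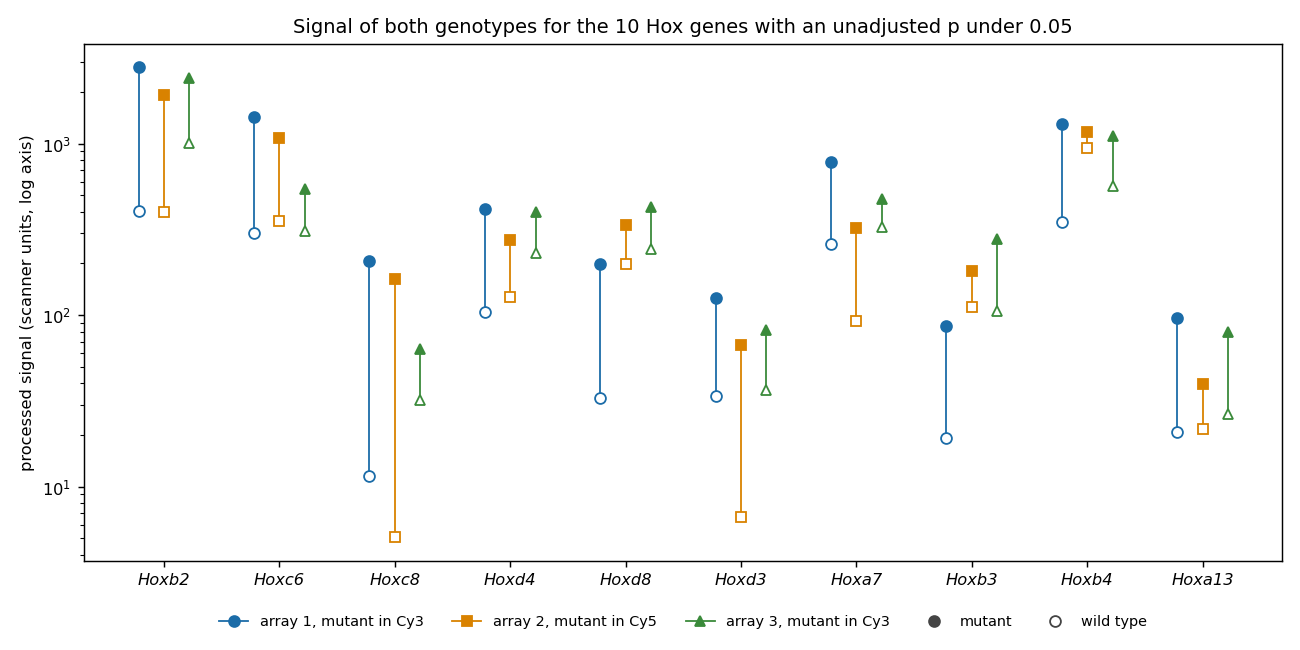
Processed signal in scanner units on a log axis (y axis) of the 10 Hox genes with an unadjusted p under 0.05 (x axis); filled points are the mutant, open points wild type, each line joins the pair hybridised together on 1 array. The filled point is above the open one in every pair; heights of different genes are not comparable, because each probe has its own brightness.

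Nearer the head end of the Hoxa cluster the arrays did not share a sign. Hoxa3, needed for the thymus and parathyroid, read 1.55, 0.08 and -0.26. Hoxa2, which sets the identity of the second branchial arch, had the lowest mean of all members, at -0.57, 0.11 and -1.22 (mean -0.56 ± 0.66, adjusted p = 0.397), with a scanner mean of -2.0 ± 2.14. In the mutant it was well above background on 1 array.

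Hoxa11, a gene of the forearm and kidney, is printed on 10 spots per array and shows how far spots of one probe spread. Over the spots the ratio ran from 1.04 to 2.27 on array 1, from -0.14 to -0.01 on array 2 and from 1.09 to 1.37 on array 3, where 9 spots were used. Averaged per array the values were 1.71, -0.07 and 1.25, a mean of 0.96 ± 0.92 (adjusted p = 0.270), and the scanner mean was 1.98 ± 2.11. The arrays thus lie much further apart than the spots of arrays 2 and 3 do, and the array with the mutant in Cy5 is the one near 0. Hoxa4 read 0.22, 0.21 and -0.08. Hoxa9, a gene of blood progenitors, read 0.13, -0.0049 and -0.10, and Hoxa10, a gene of the uterus and lumbar spine, 0.19, 0.16 and -0.18. A second Hoxa9 probe read 0.19, 0.19 and 0.04. For Hoxa4, Hoxa9 and Hoxa10 in that order the mean was 0.12 ± 0.17, 0.01 ± 0.12 and 0.06 ± 0.21, and the sign of the last 2 turned with the processing.

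Another 8 members were too dim in both genotypes to pass: Hoxa5, Hoxa6, Hoxb1, Hoxc5, Hoxc11, Hoxc12, Hoxd12 and Hoxd13. Hoxc11 and Hoxd12 were not well above background on any array in either genotype. The mean ratios of the 8 lay between -0.27 for Hoxb1 and 0.29 for Hoxd13. The scanner means of Hoxb1 and Hoxd13 were -0.95 ± 2.41 and 1.26 ± 1.74. Hoxb1, a hindbrain gene printed on 10 spots, had medians over spots of -0.14, 0.14 and -0.87 on arrays 1, 2 and 3, and its mutant signal did not clear background on any of them. These values are too close to background to order the genes.

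**Figure D3:**
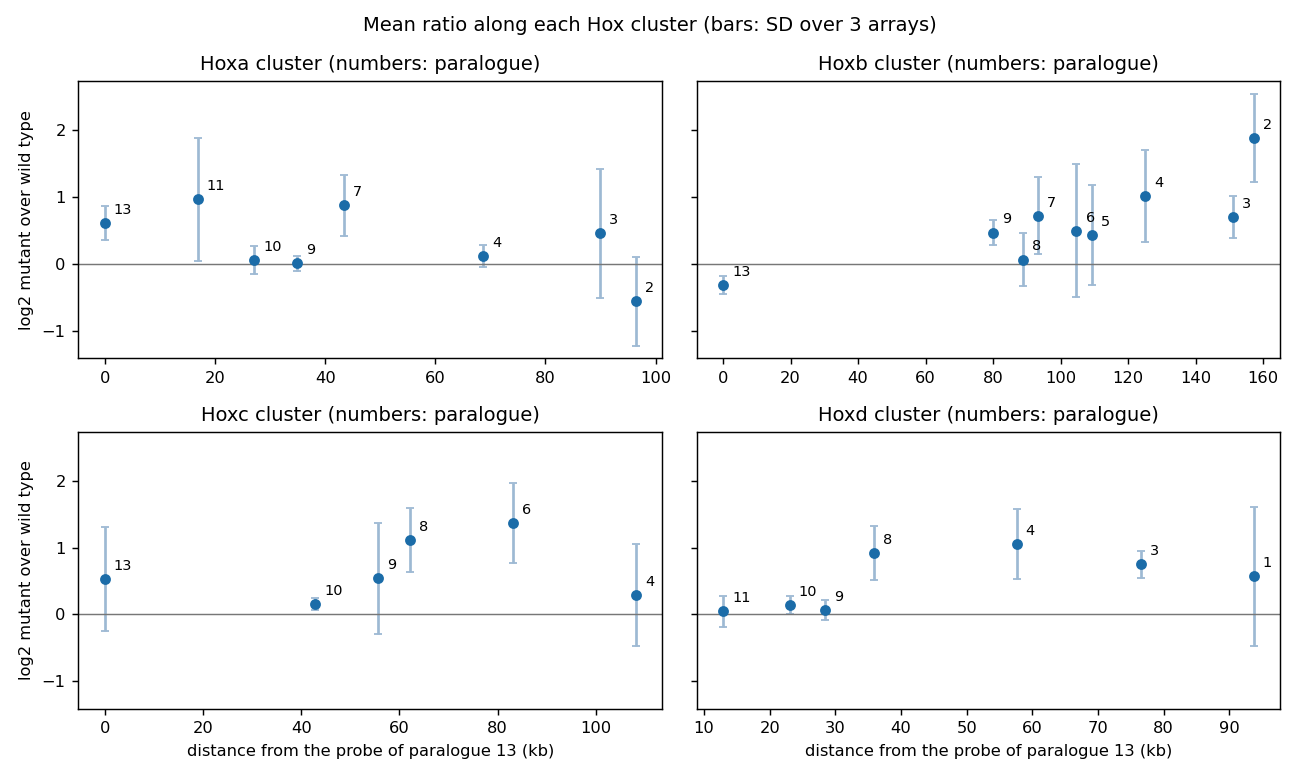
Mean log2 ratio of mutant over wild type (y axis) against the distance of each probe from the probe of paralogue 13 of its cluster in kb (x axis), for the Hox genes that passed the filter, 1 of them not drawn; bars are the SD over 3 arrays and numbers are paralogues. In the Hoxd cluster the genes within 28.4 kb of the probe of paralogue 13 lie near 0, and Hoxd8, at 35.9 kb, lies at 0.92.

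Along the chromosome, the plot of ratio against distance shows neighbours with unlike values as well as runs of like ones. In the Hoxd cluster Hoxd9 and Hoxd8 lie 28.4 and 35.9 kb from the Hoxd13 probe and had means of 0.06 ± 0.15 and 0.92 ± 0.40. In the Hoxa cluster, Hoxa13 and Hoxa11 on the one hand and Hoxa7 on the other lie around Hoxa10 and Hoxa9, which stayed near 0. The genes around the clusters did not share the shift of the Hox genes in their median. Of 68 measured genes that are no Hox gene and whose probes lie within 500000 bases of a cluster, the median was -0.06, and 1 was called. That gene was Igf2bp1, an RNA-binding protein of fetal growth on the Hoxb13 side of that cluster, which rose by 2.18, 1.41 and 1.84 (mean 1.81 ± 0.39, adjusted p = 0.0472). Those with probes between Hox probes, 8 in all, had a median of 0.01, and 0 of them had an unadjusted p under 0.05 or was called in limma.

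**Figure D4:**
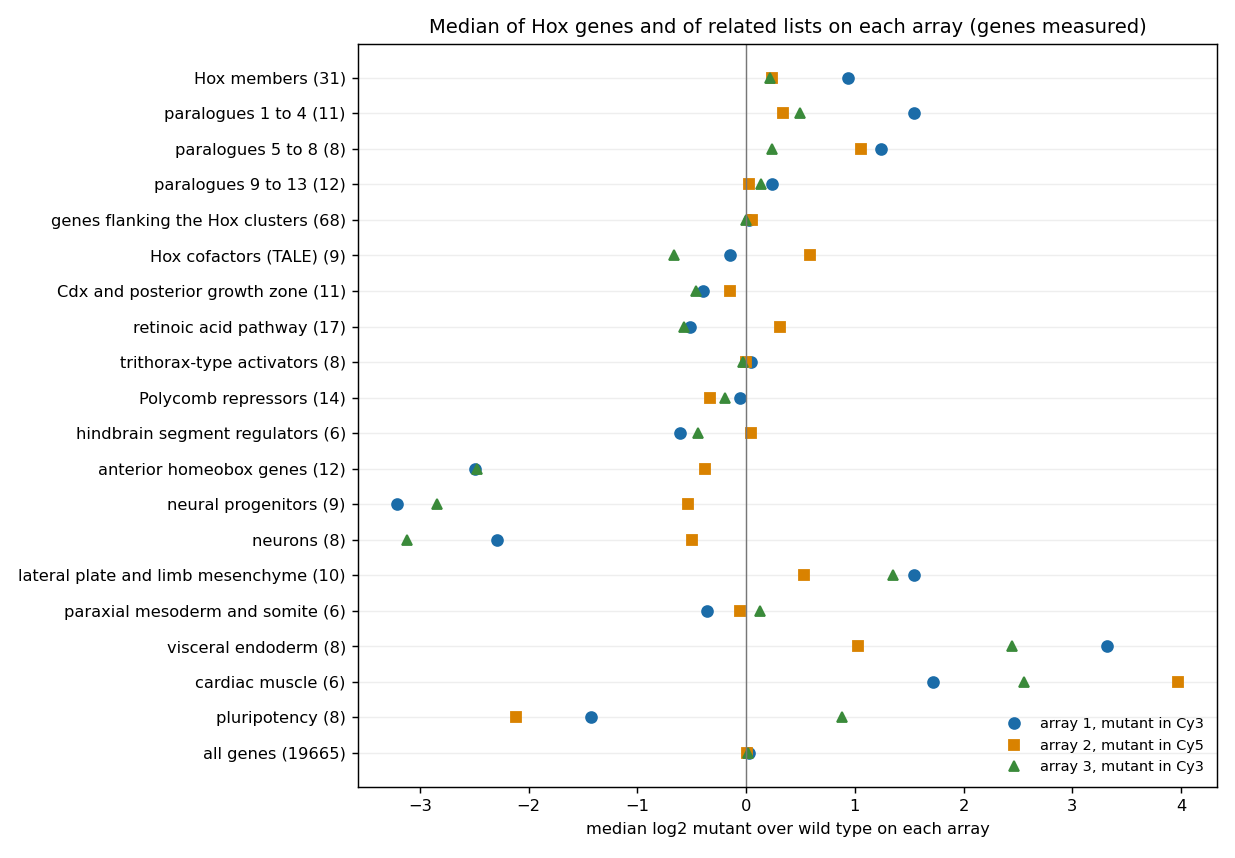
Median log2 ratio of mutant over wild type on each array (x axis) for the Hox genes, their paralogue classes, the genes around the clusters and related lists (y axis, measured genes in brackets); points are the 3 arrays. The median of the Hox genes is above 0 on every array, the anterior homeobox, neural progenitor and neuron lists are below 0 on every array and closest to 0 on array 2.

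The Cdx factors and other genes of the posterior growth zone, most of which are not known here as openers of the clusters, had no common direction. Of the 15 genes of the Cdx and posterior growth zone list 11 were measured, with a median of -0.24, and 1 rose. This was Cdx2, a direct activator of Hox genes that is also a gene of trophoblast and gut, at 2.78, 1.72 and 1.92 (mean 2.14 ± 0.56, 4.41-fold, adjusted p = 0.0481). Cdx1 read -0.29, -0.31 and -0.01, and Cdx4 was not well above background in either genotype. The next smallest p in the list was that of Fgf17, a growth zone ligand, at -0.82 ± 0.15 (adjusted p = 0.109). Brachyury, T, was at -0.70 ± 0.22 (adjusted p = 0.154).

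Of 18 genes of the retinoic acid pathway 17 were measured, with a median of -0.29. Stra6, the membrane receptor for retinol uptake, fell, at -2.03, -2.04 and -2.35 (mean -2.14 ± 0.18, adjusted p = 0.0354), and no other gene passed. Rdh10, the enzyme of the first step to retinoic acid, read 1.77, 0.61 and 1.32 (mean 1.23 ± 0.58, adjusted p = 0.109). The receptor gene Rara was at 0.77 ± 0.35 and Rxra at -0.98 ± 0.46, neither past the threshold (adjusted p = 0.157 and 0.129). Of the 6 hindbrain segment regulators, with a median of -0.23, none was called. Fgf3, a ligand made in the hindbrain, was at -1.46, -1.54 and -1.05 (adjusted p = 0.0554), and Gbx2, a factor of the front hindbrain, at -1.02 ± 0.93.

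Cofactors and chromatin regulators gave no calls. All 9 TALE genes were measured, with a median of -0.35, and on array 2 the median was 0.58, against -0.14 and -0.67 on arrays 1 and 3. Pknox1 was at -0.42 ± 0.33. Of 9 trithorax-type genes 8 were measured (median -0.12), led by Ash2l at -0.35 ± 0.18 and Kdm6a at 0.33 ± 0.31. Of 15 Polycomb genes 14 were measured (median -0.29), with Ring1 at -0.65 ± 0.34 and Phc1 at -0.96 ± 0.75 (adjusted p = 0.208 and 0.213). In limma 0 genes of these lists were called, and at an unadjusted p under 0.05 the counts were 0 TALE, 0 trithorax-type and 2 Polycomb genes, both lower.

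The homeobox and related factors of forebrain and midbrain, which lie outside the Hox clusters, read in the opposite direction to the Hox genes. Of 16 genes 12 were measured, with a median of -1.89 and array medians of -2.49, -0.37 and -2.48. In limma 0 were called, 10 had an unadjusted p under 0.05, all lower, and 9 were lower on all arrays. Rax, a gene of the eye field, read -2.58, -1.10 and -3.58 (mean -2.42 ± 1.25, adjusted p = 0.0895), and Six3, a forebrain factor, -1.72, -0.75 and -2.85 (adjusted p = 0.121). The summed processed signal of the 15 genes with a probe was 2280.3 to 17575 in the mutant and 20531 to 61874 in wild type, lower in the mutant on each array. That of the 39 Hox genes was 10193 to 14662 in the mutant and 3859 to 7078 in wild type, higher in the mutant on each array.

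Summed marker signals of several cell types differed between the genotypes beside those of the Hox genes, and their part in the Hox values was not tested. Neural progenitor markers, 9 of 9 measured, had a median of -2.18 and a summed signal of 2712 to 9149.8 in the mutant against 8224 to 66585 in wild type, led by Dll1 at -1.91 ± 0.86. Neuron markers, 8 of 8, had a median of -1.98 (1009 to 5329.8 against 2742 to 28373), led by Stmn2 at -1.76 ± 0.52. Markers of hindbrain and spinal cord neuron types, 9 of 12, had a median of -0.53 (1699 to 3284 against 2796 to 8209), led by Dbx1 at -2.85 ± 1.33. Their summed signal was lower in the mutant on arrays 1 and 3 but higher on array 2 (3284 against 2796), where the list median was 0.13. Mnx1 did not clear background in the mutant. No gene of these 3 lists was called in limma, and the counts at an unadjusted p under 0.05 were 8, 6 and 1, all lower.

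Among mesoderm markers, which share tissues with many Hox genes, the lateral plate and limb list stood out by its calls. Its 10 genes had a median of 1.04 (19871 to 21466 against 4713 to 8173), and 3 rose: Hand2, a factor of heart and limb, at 3.04 ± 0.33, the fore limb and heart factor Tbx5 at 1.74 ± 0.25, and Hand1 at 1.82 ± 0.30 (adjusted p = 0.0354, 0.0435 and 0.0435). Of the 10 genes, 8 were higher on all arrays, while Tbx4 and Prrx1 had no common sign, at 1.08 ± 1.29 and -0.48 ± 0.77. Paraxial mesoderm and somite markers, 6 of 11, had a median of -0.16 (1308 to 3370 against 1569 to 3606) and 0 calls, with 0 at an unadjusted p under 0.05, and Meox2 did not clear background in the mutant. Intermediate mesoderm markers, 6 of 6, had a median of 0.14 (2282 to 5503 against 1723 to 2190.1). Cardiac muscle markers, 6 of 6, had a median of 2.90 (11947 to 82828 against 3506 to 12505), and Tnnt2, cardiac troponin T, rose.

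Of the remaining markers, visceral endoderm had a median of 2.34 over 8 of 8 (262394 to 524871 against 46216 to 147763), and 2 rose, Ttr and Apoa4. Endothelium had 0.90 over 6 of 6 (20269 to 36322 against 4164 to 6407), and Flt1 and Kdr rose. Definitive endoderm had 0.87 over 6 of 7 (34447 to 45931 against 24125 to 26321), Foxa1 rose and Pdx1 was not well above background in either genotype. Blood markers had 0.54 over 7 of 9 (29289 to 63339 against 14095 to 23602), with Ptprc not above background in the mutant and Spi1 not in wild type, and neural crest 0.29 over 6 of 6 (16208 to 22565 against 3963 to 8331), both without a call. Pluripotency markers had no common sign over the arrays, with medians of -1.42, -2.12 and 0.88 (15727 to 87246 against 44305 to 57957, 8 of 8). Array 3, where these markers read higher in the mutant, is also the array with the fewest Hox genes above 0, and whether both are linked was not tested.

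The region in front of the start site was read for members that read higher in the mutant, none of them past the threshold, since the Cdx and retinoic acid signals act on DNA near Hox genes. RefSeq sequence of the build GRCm38.p6 was matched for 22 of 39 Hox genes. The 250 bases before the start are shown for 5 of the 10 members with an unadjusted p under 0.05, those with a sequence that holds a searched motif. Capitals mark matches on either strand to TTTATG, a core site of Cdx factors, or to AGGTCA, the core repeat of retinoid receptor sites.
Hoxa7, chr6:52218574-52218823, minus strand: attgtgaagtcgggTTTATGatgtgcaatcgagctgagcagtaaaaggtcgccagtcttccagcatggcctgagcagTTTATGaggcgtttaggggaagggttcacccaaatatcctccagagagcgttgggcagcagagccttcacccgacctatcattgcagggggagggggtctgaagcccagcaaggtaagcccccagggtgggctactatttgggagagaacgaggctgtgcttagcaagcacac
Hoxb4, chr11:96318017-96318266, plus strand: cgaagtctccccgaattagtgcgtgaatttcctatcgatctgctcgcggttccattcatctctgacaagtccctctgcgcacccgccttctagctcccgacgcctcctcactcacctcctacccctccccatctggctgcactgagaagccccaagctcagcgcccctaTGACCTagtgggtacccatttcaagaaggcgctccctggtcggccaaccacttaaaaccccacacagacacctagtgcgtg
Hoxd3, chr2:74711743-74711992, plus strand: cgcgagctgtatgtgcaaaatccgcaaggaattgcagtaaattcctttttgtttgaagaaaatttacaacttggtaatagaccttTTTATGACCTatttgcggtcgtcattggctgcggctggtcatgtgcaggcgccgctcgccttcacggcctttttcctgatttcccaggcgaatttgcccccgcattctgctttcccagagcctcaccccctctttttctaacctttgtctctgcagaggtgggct
Hoxd4, chr2:74721728-74721977, plus strand: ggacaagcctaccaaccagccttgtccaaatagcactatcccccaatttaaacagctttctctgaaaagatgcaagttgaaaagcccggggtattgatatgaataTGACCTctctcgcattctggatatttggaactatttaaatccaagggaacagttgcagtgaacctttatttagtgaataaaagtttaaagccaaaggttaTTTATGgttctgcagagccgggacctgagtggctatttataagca
Hoxd8, chr2:74704365-74704614, plus strand: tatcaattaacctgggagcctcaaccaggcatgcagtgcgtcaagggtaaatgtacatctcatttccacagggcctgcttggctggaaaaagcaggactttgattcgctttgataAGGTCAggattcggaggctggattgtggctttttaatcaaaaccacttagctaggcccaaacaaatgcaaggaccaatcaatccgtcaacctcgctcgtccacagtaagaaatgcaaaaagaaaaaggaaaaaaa
In Hoxd3 the motifs overlap. Over windows of 300 bases, which reach 50 bases past the start, TTTATG or its reverse complement was found in 5 of 22 Hox genes (22.7%) and in 12.1% of 27025 genes, and AGGTCA in 7 of 22 (31.8%) and in 16.0%. A shared site of Pbx and Hox proteins, TGATNNAT, was found in 3 of 22 (13.6%) and in 9.04%. The Hox windows held a median of 13.5 CpG and 56.8% G and C, against 7 and 52.7% over all genes. Among the genes that hold TTTATG, Hoxa7, Hoxd3 and Hoxd4 were higher on all arrays while Hoxb8 and Hoxd11 were at 0.06 ± 0.40 and 0.05 ± 0.23. Among those that hold AGGTCA, Hoxb4, Hoxd3, Hoxd4 and Hoxd8 were higher on all arrays. Hoxc4 and Hoxd10 had no common sign, at 0.29 ± 0.76 and 0.14 ± 0.14, and Hoxa5 was too dim to pass. A match is a description of these letters and not a site in use.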

How the data were processed

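RNA of day 10 embryoid bodies was amplified and hybridised, per the labels' protocols, on Agilent arrays. The deposited scanner files hold spot and background intensity and the log10 of red over green, which per the file headers came from Feature Extraction 10.7.3.1. The authors' deposited table holds log2 ratios of mutant over wild type; the submitters' processing notes name limma, and the rest is not given in the sources used here. Its columns tracked the scanner ratios with slopes of 0.91 to 0.95 on the log2 scale in that direction and had medians of -0.01, 0.02 and -0.01; how it was centred stays unknown.

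With limma 3.58.1 in R 4.3.3, mean intensity and local background, limited to 100 units (25 spots of array 2 exceed it, and 0 on the others), were corrected by normexp (offset 50) and normalized by loess, with control spots at weight 0. That limit was chosen with earlier results of these data known, and without it 0 genes were called in limma. Outlier and control spots were left out, spots of a probe averaged, and a probe kept (25494 of 39429) when 1 genotype or both cleared background on each array. The brightest kept probe stood for each of 19665 genes. Names came from a RefSeq table of GRCm38.p6 by accession for 27234 probes, by symbol for 3576 and by synonym for 565, and 8054 kept the file's name. The mean ratio was set against 0 in lmFit and eBayes (4.76 degrees of freedom with the prior). The test was tested on simulated data.

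Every Hox gene was to be named, with the second kept probes. Of each list all called genes up to 4, or else those with the 2 smallest p, are named, and of marker lists up to 2. Cdx1, Cdx4, Fgf17, T, Rdh10, Rara and Rxra were added after their values were seen. Beyond the limit for marker lists, Hand1 is named for its call and Tbx4 and Prrx1 for having no common sign. Mnx1, Meox2, Pdx1, Ptprc and Spi1 are named for not clearing background. Members and lists were chosen with earlier results of these data known. Alternatives were other background, normalization, filter, probe and variance settings, a dye term, the authors' values and leaving out each replicate. The labels call the replicates biological. Some single-gene values and 1 probe sequence are not reported here, while counts and medians include those genes.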

Additional observations from a re-analysis of the deposited data

How the results depend on the processing

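Values of the 31 members were computed under 14 alternatives. Of 425 values, 405 kept their sign and their side of the threshold, 10 passed it and 10, in 7 members, turned their sign. The sign turned for Hoxa9 with the scanner's log ratio (-0.044), Hoxa10 with the authors' log ratios (-0.0067) and Hoxd11 with a dye term (-0.011), and in each of the following without replicate 1. Over the left-out replicates the ratio ran from -0.091 to 0.81 for Hoxa3, -0.055 to 0.060 for Hoxa9, -0.0093 to 0.18 for Hoxa10, -0.11 to 0.28 for Hoxb8, -0.045 to 0.70 for Hoxc4, -0.030 to 0.92 for Hoxd1 and -0.066 to 0.16 for Hoxd11. Of all genes, 0 were called with the background not limited (3021 at an unadjusted p under 0.05), with the authors' log ratios (3838) and with no filter (4831), 605 with an intensity trend, 769 with the scanner's log ratio and 2534 with a dye term. With replicates left out the counts ran from 0 to 5082, with 0 without replicate 1 or 3 and the most without replicate 2. Called members ran from 0 to 8 with replicates left out, the 8 without replicate 2, where 25.8% of all genes were called. They were 2 with a dye term, where 12.9% of all genes were called. Members higher on all arrays were 14 to 24 and members lower 1 to 2 with replicates left out, and 0 were lower with the filter on both genotypes. The Hox median was 1.02 with the scanner's log ratio. The dye term fits array 2 exactly, so the spread is then that between arrays 1 and 3. The cause of the other changes was not tested.

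Called genes of lists over the left-out replicates ran from 0 to 3 (TALE), 0 to 3 (Cdx list), 0 to 5 (retinoic acid), 0 to 6 (Polycomb), 0 to 3 (hindbrain), 0 to 9 (anterior homeobox) and 0 to 16 (genes around the clusters), and with a dye term they were 2 for the Cdx list, 4 for retinoic acid, 1 for hindbrain, 8 for anterior homeobox and 7 around the clusters. The highest counts all came without replicate 2, where 25.8% of all genes were called. With a dye term 12.9% of all genes were called. Cdx2, Stra6 and Igf2bp1 lost their calls, leaving 0 in each list, with the background not limited, the authors' log ratios or no filter. Cdx2 and Igf2bp1 also lost them without background correction, and Cdx2 with the mean of a gene's probes. Fgf3 was called with the scanner's log ratio or an intensity trend, 1 each, and around the clusters these gave 4 each and scaling between arrays 2. Medians moved for the Cdx list (-0.66 with the scanner's log ratio, -0.46 to -0.16 over left-out replicates) and Polycomb (-0.14 with a dye term, -0.29 to -0.078). For trithorax-type genes the median was -0.17 with the scanner's and with the authors' log ratios, -0.068 with median centring, -0.064 with a dye term and -0.18 to -0.079 with replicates left out. Around the clusters it was 0.0034 with the background not limited, -0.016 with median centring, -0.024 with a dye term, -0.10 with the filter on both genotypes and -0.038 to 0.019 with replicates left out. The retinoic acid median ran from -0.60 to -0.011, the hindbrain one from -0.37 to -0.044 and the TALE one from -0.36 to -0.072 over left-out replicates. The ratio within each array already pairs the genotypes, so no further block was fitted.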

Other observations

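Transcripts read between the Hox probes varied among themselves. The antisense RNA Hoxa11os, which lies on the other strand next to Hoxa11, read 0.86, -0.33 and 0.09 on arrays 1, 2 and 3, and the transcript 9530018H14Rik, on the strand of the Hoxa genes between Hoxa11 and Hoxa13, read 0.43, 0.30 and 0.49 (mean 0.41 ± 0.10, adjusted p = 0.312 in limma). The homeobox genes Evx1 and Evx2, which flank the Hoxa and Hoxd clusters next to paralogue 13, were at 0.65 ± 0.55 and -0.18 ± 0.39 (adjusted p = 0.287 and 0.726). Near the Hoxc cluster the phosphodiesterase gene Pde1b was at -1.82, -2.40 and -1.34 and the phosphatase inhibitor gene Ppp1r1a at -1.78, -1.22 and -1.60 (adjusted p = 0.0530 and 0.0510). Their probes lie within 1 kb of each other on opposite strands, and neither passed the threshold. These genes were picked for this paragraph after their values were seen.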
